A study of Mus musculus with 7 samples.

Results

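B cells and the plasma cells that arise from them were followed through 31 genes in the mammary gland of mice with and without a PRA transgene. The members were given as a list of B cell and plasma cell genes, and their probes were the 59 non-control probes that carry one of these names in the scanner files, out of 56605 probes with 37074 distinct names. All 31 genes had a probe, 14 of them a single one and 17 several. The animals were nulliparous adult FVB females of 20 to 25 weeks, taken in diestrus, with 3 wild-type and 4 PRA transgenic mice. The transgenics are bigenic: the murine cytomegalovirus (CMV) promoter, which is not particular to a cell type, drives GAL-4, and GAL-4 switches on a UAS-PR-A gene, so that they carry additional PR-A, the A form of the progesterone receptor. The wild-type mice carried no such addition. RNA came from one abdominal gland per animal, from which the lymph nodes had been cut out before freezing. Each gland was labeled with Cy5 and hybridized beside a common reference in Cy3, Universal Mouse Reference RNA, which pools RNA of mouse cell lines, and no array had the dyes swapped. A log2 ratio below therefore gives the gland relative to the reference, a positive value being higher in the gland.

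B cells recognize antigen through the B cell receptor, a surface immunoglobulin that signals through the Cd79a and Cd79b chains. The transcription factors Ebf1 and Pax5 set up and hold B cell identity, and receptors of the TNF family such as Tnfrsf13c, the receptor for BAFF, keep the cells alive. When a B cell becomes a plasma cell, Prdm1, Irf4 and Xbp1 replace this program with one of antibody secretion. The normal mammary gland holds scattered B cells, and plasma cells that make IgA gather there mainly around lactation.

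Of the 31 genes, 27 were tested, since at least 1 of their probes was well above background in Cy5 in all wild-type glands or in all PRA transgenic glands. This filter kept 43 of the 59 member probes and 34284 of all probes, and each gene is given by its brightest kept probe. No gene could pass it through a single wild-type array. The probes of Spib, Tnfrsf13c and Pou2f2 passed through wild-type alone, being well above background in Cy5 in 3 of 4 PRA transgenic glands. They are included in the counts below, and the size of their genotype differences is uncertain. Cd79a, Fcer2a, Blk and Fcrla were not tested. The Cy3 reference was well above background on all 7 arrays for 21 of the 27 genes and on none for 2, Bank1 and Pax5.

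All 7 arrays lay on 1 slide, with the wild-type glands in row 1 and the PRA transgenic glands in row 2, so that row and genotype cannot be told apart. Between 62.7% and 66.2% of probes were well above background in Cy5 on the wild-type arrays and between 56.6% and 60.2% on the PRA transgenic arrays. For the Cy3 reference, the same RNA throughout, the shares were 53.2% to 54.0% and 47.2% to 50.6%. For the members, the median log2 fold change between genotypes was -0.30 in Cy5 alone and 0.01 in Cy3 alone, where single genes ran from -0.48 to 0.52. Fold changes in a single dye use intensities scaled to the 75th percentile of each array. Log2 intensities of single arrays are given unscaled and also carry the brightness of the array. The array of wild-type replicate 1 stood apart for these genes, and values without it are given beside the main results.

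The regulatory stretches of some members are shown because they hold letters of factors that are themselves members or act with them. They are the 250 bases before the start of the gene, read 5′ to 3′ on the strand of the gene, from RefSeq on GRCm38.p6, with matches in capitals. Vpreb3 and Cd79a read high on wild-type replicate 1, and Blnk did not. The stretches lie at chr10:75948050-75948299 on the plus strand for Vpreb3, chr7:24897247-24897496 on the plus strand for Cd79a and chr19:40994222-40994471 on the minus strand for Blnk.
Vpreb3: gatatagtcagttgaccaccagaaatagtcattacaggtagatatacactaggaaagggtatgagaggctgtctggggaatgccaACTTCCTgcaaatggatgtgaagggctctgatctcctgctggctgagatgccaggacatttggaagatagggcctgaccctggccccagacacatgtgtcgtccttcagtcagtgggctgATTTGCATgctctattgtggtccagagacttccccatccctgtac
Cd79a: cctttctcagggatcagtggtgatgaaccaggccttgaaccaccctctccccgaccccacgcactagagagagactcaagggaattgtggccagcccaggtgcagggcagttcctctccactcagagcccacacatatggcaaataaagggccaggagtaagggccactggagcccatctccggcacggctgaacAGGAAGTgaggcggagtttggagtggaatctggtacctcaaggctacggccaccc
Blnk: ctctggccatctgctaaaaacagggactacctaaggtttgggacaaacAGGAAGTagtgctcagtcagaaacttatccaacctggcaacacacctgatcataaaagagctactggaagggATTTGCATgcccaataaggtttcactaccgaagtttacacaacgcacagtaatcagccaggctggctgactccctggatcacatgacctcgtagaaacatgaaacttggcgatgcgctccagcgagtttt

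The letters searched, on both strands and from 250 bases before to 50 after the start, were the octamer ATGCAAAT that POU factors such as Pou2f2 bind together with Pou2af1, and the ETS core AGGAAGT as bound by Spib and its relative PU.1. The 2 motifs do not overlap in these stretches. RefSeq held 29 promoters for 25 of the members, and 6 members had no entry. The octamer was found in 2 of these genes, Vpreb3 and Blnk, and in 1.74% of all 32851 promoters. The ETS core was found in 6 genes (Blnk, Cd37, Cd72, Cd79a, Tnfrsf13b and Vpreb3) and in 9.35% of all promoters. In Vpreb3 the octamer lay 45 to 38 bases before the start on the opposite strand, and in Blnk 130 to 123 bases before it. Vpreb3 read high on wild-type replicate 1 and Blnk did not. Whether the letters go with the values on that array was not tested. A match describes the letters and is no measured binding site.

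**Figure D1:**
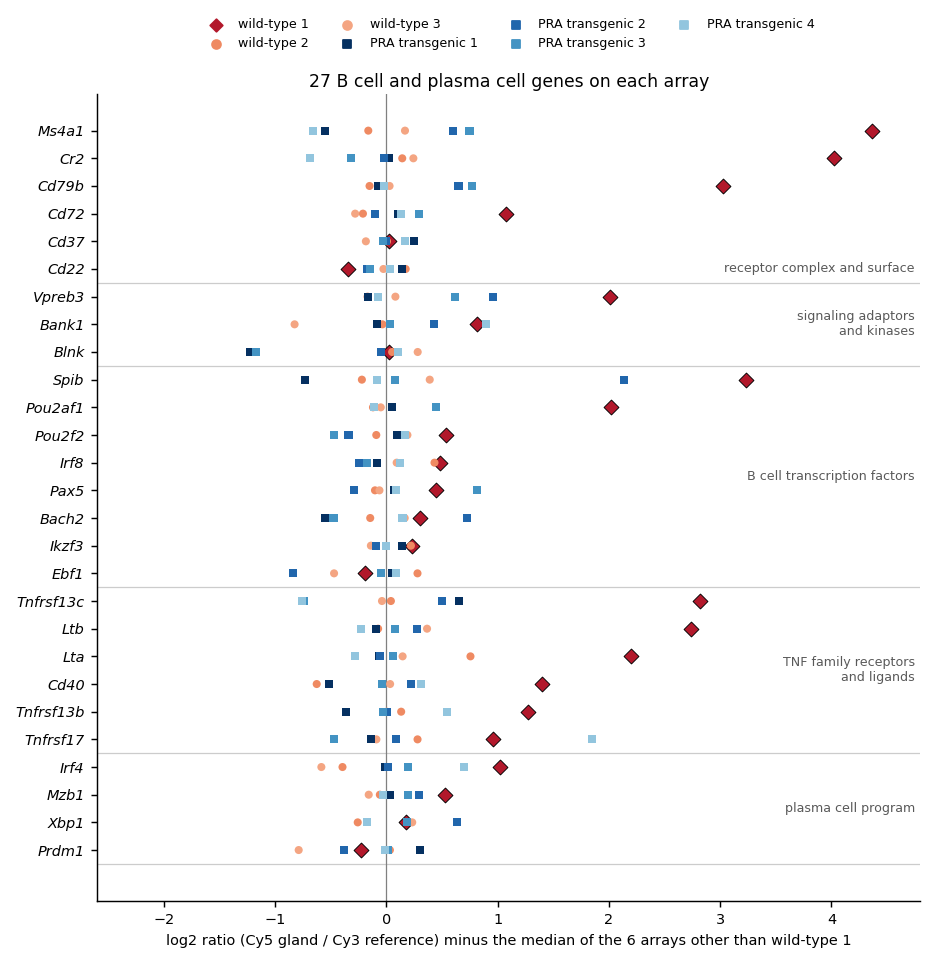
Each row is one of the 27 tested genes, grouped by role, and each point one array; the horizontal axis gives the log2 ratio minus the median of the 6 arrays other than wild-type replicate 1. The diamonds of wild-type replicate 1 lie up to 4.37 to the right for Ms4a1 and close to the other arrays for Xbp1 and Prdm1.

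As a group the B cell genes did not separate the genotypes, and their largest differences lay between one wild-type animal and the other 6. Wild-type replicate 1 gave the highest log2 ratio of the 7 arrays for 17 of the 27 genes, against 10.5% of all probes tested. For 10 of the 27 it lay 2-fold or more above every other array, against 0.747% of all probes. These 10 were Ms4a1, Cr2, Cd79b, Ltb, Tnfrsf13c, Pou2af1, Lta, Cd40, Spib and Vpreb3. No other array was 2-fold above all the rest for any of the 27 genes. As the list was chosen with this array known, these counts are a description. The distance of wild-type replicate 1 from the median of the other 6 ran from -0.35 for Cd22 to 4.37 for Ms4a1 on the log2 scale and was below 0 for 3 genes, Cd22, Ebf1 and Prdm1. In bulk tissue, fewer B cells and less RNA per cell cannot be told apart.

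Among the genes of the receptor complex and the B cell surface, Ms4a1 encodes CD20, a surface protein of mature B cells. Its log2 ratio was -0.23, -4.76 and -4.43 in wild-type replicates 1 to 3 and -5.15, -4.0, -3.85 and -5.26 in PRA transgenic replicates 1 to 4. Wild-type replicate 1 stood 20.7-fold over the median of the others, and the other 2 wild-type glands lay inside the PRA transgenic range. The genotypes differed by -1.42 (standard error 1.09, limma adjusted p = 0.751), less than the spread of the wild-type glands (SD 2.53, n = 3), and by 0.03 without wild-type replicate 1.

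Cr2 encodes the complement receptor CD21 of mature B cells and follicular dendritic cells. Its log2 ratio was 4.87, 0.99 and 1.09 in wild-type and 0.87, 0.83, 0.53 and 0.16 in PRA transgenic glands. All 3 wild-type glands were above all 4 PRA transgenic glands, the first of them by far and the other 2 narrowly. The log2 fold change of -1.72 (standard error 0.91, limma adjusted p = 0.632) became -0.45 without wild-type replicate 1. The reference was well above background on 3 arrays for this probe, and in Cy5 alone the log2 fold change was -1.20. In unscaled Cy5 the genotypes overlapped, since wild-type replicate 3 read 5.11 (log2 intensity) and the PRA transgenic glands 5.24 to 5.51. Its other kept probe, A_55_P2743452, had a log2 fold change of -0.06 with overlapping genotypes, and the median over the probes of Cr2 was -0.89.

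Cd79b, a signaling chain of the receptor, read -0.38, -3.56 and -3.38 in wild-type and -3.48, -2.76, -2.64 and -3.43 in PRA transgenic glands. Here the other 2 wild-type glands lay at or near the low end, below PRA transgenic replicates 2 and 3. The log2 fold change was -0.64 (standard error 0.76, limma adjusted p = 0.851) and turned to 0.39 without wild-type replicate 1. Its partner Cd79a could not be tested, because its only probe was well above background in Cy5 on 3 arrays (wild-type replicates 1 and 2 and PRA transgenic replicate 4) and in Cy3 on none. It read 1.62, 0.31 and 0.25 in wild-type and 0.18, 0.43, -0.24 and 0.47 in PRA transgenic glands, again highest on wild-type replicate 1.

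The 60 bases of the only probe of Cd79a and of Blk, both too dim for the test, are shown with their place on mm9, chr7:25684357-25684614 and chr14:63997333-63998470. Each probe is 60 bases long, and its stated place spans 258 and 1138 bases of the genome. Whether the probes join exons of these genes was not tested.
Cd79a probe: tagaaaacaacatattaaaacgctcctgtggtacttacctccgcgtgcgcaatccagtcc
Blk probe: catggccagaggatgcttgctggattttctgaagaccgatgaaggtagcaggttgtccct

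The remaining surface genes were Cd72 and Cd22, inhibitory coreceptors, the tetraspanin Cd37, and Fcer2a, the low-affinity IgE receptor CD23. Cd72 was highest on wild-type replicate 1, 2.10-fold over the median of the others, with a log2 fold change of -0.09. The brightest probes of Cd22 and Cd37 had log2 fold changes of 0.03 and 0.14 and did not read high on that array. Fcer2a was not tested: its probe A_51_P210591 was well above background on wild-type replicate 1 alone, at 4.13 against -0.60 to 0.09 elsewhere. Its other probe, A_55_P2732758, was above background on no array by that measure. Of the 6 surface genes tested, 4 were lower and 2 higher in PRA transgenics in mean, where 45.8% of all probes were lower. None of the 6 had an unadjusted limma P under 0.05.

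Among the signaling genes, Blnk, the adaptor that links the receptor to downstream kinases, behaved in a different way. It read -1.86, -1.83 and -1.60 in wild-type and -3.11, -1.93, -3.05 and -1.78 in PRA transgenic glands. PRA transgenic replicates 1 and 3 were more than 2-fold below every wild-type gland, while replicate 4 lay among them. The log2 fold change was -0.70 (standard error 0.37, limma adjusted p = 0.628) with all arrays and -0.75 without wild-type replicate 1. Vpreb3, which associates with the immunoglobulin chain in developing B cells, read -0.27 on wild-type replicate 1 and -2.45 to -1.32 on the others. The adaptor Bank1, whose reference was well above background on no array, read 2.03 to 3.75, with a log2 fold change of 0.33 that turned to -0.15 in Cy5 alone. In unscaled Cy5 Bank1 was highest on wild-type replicate 1, at 7.45 (log2 intensity) against 5.14 to 6.34 on the others. The kinase gene Blk and Fcrla, an Fc receptor-like gene, were well above background in Cy5 on no PRA transgenic array, on 1 wild-type array for Blk and on 2 for Fcrla, in both cases including replicate 1. No fold is given for these probes or for Fcer2a, since their wild-type mean was under the lowest signal counted as well above background in PRA transgenics.

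The B cell transcription factors were divided. Spib, an ETS factor, read 2.22, -1.23 and -0.62 in wild-type and -1.74, 1.13, -0.93 and -1.09 in PRA transgenic glands, so that PRA transgenic replicate 2 was also high. Its log2 fold change of -0.78 (standard error 0.97, limma adjusted p = 0.859) turned to 0.26 without wild-type replicate 1. The Spib probe was not well above background in Cy5 in PRA transgenic replicate 1, so that the size of the difference is uncertain. Pou2af1, the coactivator of octamer factors, read -2.70, -4.84 and -4.77 in wild-type and -4.67, -4.27, -4.27 and -4.83 in PRA transgenic glands. It was thus 4.06-fold above the median on wild-type replicate 1 and close together on the other 6, with a log2 fold change of -0.41 (standard error 0.52), or 0.30 without that array.

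Pax5 read 0.97, 0.42 and 0.46 in wild-type and 0.59, 0.23, 1.34 and 0.61 in PRA transgenic glands on its brightest probe. The highest gland was a PRA transgenic one, and the log2 fold change was 0.08 (standard error 0.28, limma adjusted p = 0.967). Irf8, a factor of B cells and also of dendritic cells and macrophages, read 1.91, 1.86 and 1.52 in wild-type and 1.34, 1.18, 1.25 and 1.55 in PRA transgenic glands. Only PRA transgenic replicate 4 overlapped with wild-type. Irf8 had the lowest P of the members, at a log2 fold change of -0.43 (standard error 0.15, unadjusted P = 0.0247, limma adjusted p = 0.476), and -0.36 without wild-type replicate 1. The other factors had log2 fold changes of -0.35 for Pou2f2 (-0.19 without wild-type replicate 1), -0.15 for Bach2 (-0.05), -0.09 for Ikzf3 (-0.03) and -0.06 for Ebf1 (-0.09), and adjusted p from 0.698 to 0.974 in limma.

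All 6 receptors and ligands of the TNF family were lower in PRA transgenics in mean, against 45.8% of all probes, and 4 of these 6 were still lower without wild-type replicate 1, against 46.5%. Lta encodes lymphotoxin alpha, a ligand in the making of lymphoid tissue. It read 1.78, 0.34 and -0.27 in wild-type and -0.48, -0.47, -0.36 and -0.70 in PRA transgenic glands, so that the genotypes did not overlap. Its log2 fold change was -1.12 (standard error 0.44, unadjusted P = 0.0383, limma adjusted p = 0.527), and -0.53 without wild-type replicate 1 (unadjusted P = 0.0434, limma adjusted p = 0.595). The Lta probe was dim in PRA transgenic glands, at 4.02 to 4.44 in Cy5 (log2 intensity). The lowest probes called well above background there read 3.60 to 3.99. Cy3 was well above background on 5 arrays. With normexp and loess the log2 fold change was -0.52, and Lta no longer had an unadjusted P under 0.05.

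Ltb, the partner of Lta in the membrane-bound lymphotoxin, read 1.36, -1.45 and -1.01 in wild-type and -1.47, -1.10, -1.30 and -1.60 in PRA transgenic glands. Only wild-type replicate 1 stood out, and the log2 fold change of -1.01 (standard error 0.63, limma adjusted p = 0.687) shrank to -0.14 without it. Tnfrsf13c, the BAFF receptor, read 2.51, -0.27 and -0.35 in wild-type and 0.34, 0.19, -1.05 and -1.07 in PRA transgenic glands. The other 2 wild-type glands lay between the PRA transgenic ones, and the log2 fold change went from -1.03 (standard error 0.76, limma adjusted p = 0.743) to -0.09 without wild-type replicate 1. The Tnfrsf13c probe was not well above background in Cy5 in PRA transgenic replicate 3, so that the size of the difference is uncertain.

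Tnfrsf13b, which encodes TACI, a receptor for BAFF and APRIL, read -0.91, -2.05 and -2.18 in wild-type and -2.55, -2.18, -2.21 and -1.64 in PRA transgenic glands. Its log2 fold change was -0.43 (standard error 0.35, limma adjusted p = 0.769), or -0.02 without wild-type replicate 1. Cd40, the receptor for help from T cells, read 0.76 on wild-type replicate 1 and -1.27 to -0.33 on the others. Tnfrsf17, which encodes BCMA and is the receptor of this family that plasma cells keep, was highest on PRA transgenic replicate 4 at 2.08, with the other glands between -0.24 and 1.19.

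Of the 4 genes of the plasma cell program, Mzb1 and Irf4 were highest on wild-type replicate 1, against 10.5% of all probes. That array was 2-fold above every other for 0 of the 4, against 0.747%. Mzb1, a chaperone of antibody-secreting and marginal zone B cells, read -3.29, -3.88 and -3.98 in wild-type and -3.79, -3.53, -3.63 and -3.85 in PRA transgenic glands. All PRA transgenic values lay inside the wild-type range, and the log2 fold change was 0.02 (standard error 0.19, limma adjusted p = 0.990). Xbp1, the factor of secretory capacity that epithelium also uses, read 1.28, 0.85 and 1.34 in wild-type and 0.93, 1.74, 1.29 and 0.93 in PRA transgenic glands. Its log2 fold change was 0.07 (standard error 0.24, limma adjusted p = 0.965), and its 3 probes ran from 0.07 to 0.22. Prdm1 had a log2 fold change of 0.31. Irf4 read -1.42, -2.84 and -3.03 in wild-type and -2.46, -2.43, -2.25 and -1.75 in PRA transgenic glands. Wild-type replicate 1 was 2.04-fold over the median of the others, and the log2 fold change was 0.20. Without that array, the log2 fold change of Irf4 was 0.71 (standard error 0.24, unadjusted P = 0.0231, limma adjusted p = 0.553). The other kept probe of Irf4, A_55_P2733572, gave -0.18 with all arrays and 0.03 without wild-type replicate 1, and the median over the probes was 0.01.

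**Figure D2:**
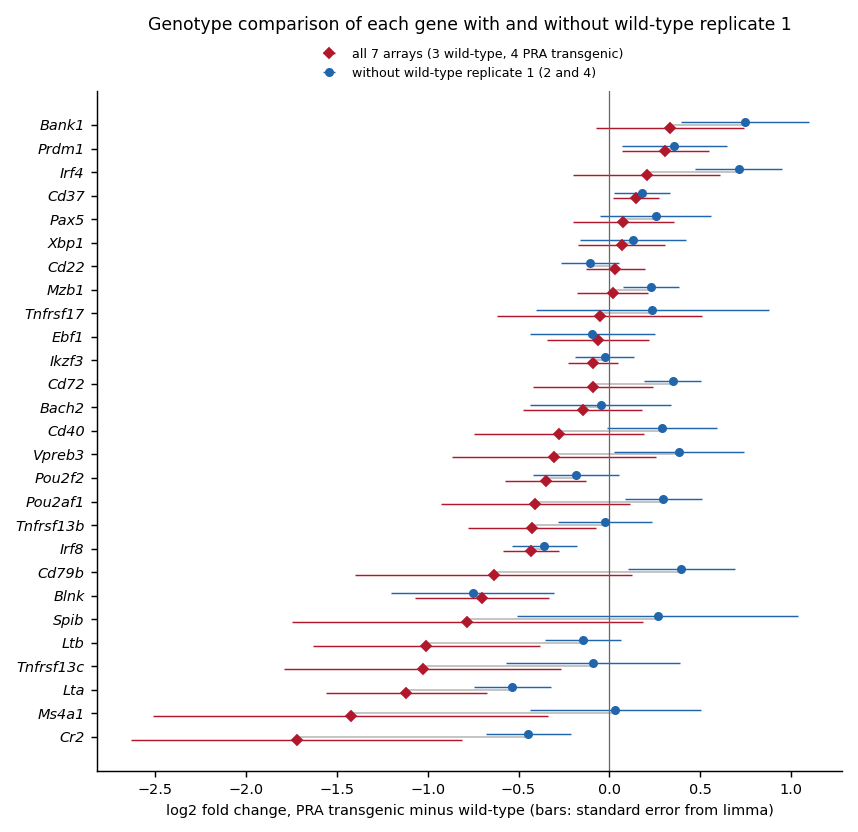
The log2 fold change of each of the 27 genes (PRA transgenic minus wild-type, with its limma standard error) is given with all 7 arrays as red diamonds and without wild-type replicate 1 as blue circles. Ms4a1 moved from -1.42 to 0.03 and Cr2 from -1.72 to -0.45, while Blnk stayed at -0.70 and -0.75.

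Over the 27 genes, 0 had an adjusted p under 0.05 in limma, against 0.0117% of all probes, and the lowest adjusted p was 0.476. At an unadjusted P under 0.05, 2 were lower in PRA transgenics (Irf8 and Lta, against 4.48% of all probes) and 0 higher (against 4.54%), so 2 in all against 9.02%. The methods' t-test also gave 0 after adjustment and 1 at an unadjusted P under 0.05. The genotypes did not overlap for 2 genes, Cr2 and Lta, both lower in PRA transgenics, against 4.53% of all probes. For Cr2 this held for the ratio on the brightest probe and not for its other kept probe or in unscaled Cy5. In mean, 19 genes were lower and 8 higher, where 45.8% of all probes were lower. The median log2 fold change was -0.28 against 0.02 for all probes. Without wild-type replicate 1 the split was 12 lower and 15 higher, against 46.5% lower of all probes, and the median was 0.13. For 9 genes the sign of the difference turned when that array was left out. At an unadjusted P under 0.05 there were then 1 lower gene, Lta, against 4.39% of all probes, and 1 higher gene, Irf4, against 3.85%. No adjusted p was under 0.05, against 0.0146%.

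Several genes with more than one probe gave different pictures by probe. Of the 43 kept probes, 26 were highest on wild-type replicate 1, against 10.5% of all probes tested. For 14 it was 2-fold or more above every other array, against 0.747%. Probes of the same gene are not independent. Among these 14 are probes of Cd22, Ikzf3, Spib and Tnfrsf13c that were kept through wild-type alone. For Cd22, probe A_51_P448140 (chr7:31651590-31651649 on mm9) read 4.30, 2.35 and 2.26 in wild-type and -0.59, 1.80, 1.14 and 1.53 in PRA transgenic glands. On this probe Cy5 was well above background in all 3 wild-type glands but in 1 of 4 PRA transgenic glands, and Cy3 on no array. It was kept through wild-type alone, so that its order of the genotypes and the size of the difference are not read. The brighter probe A_55_P2016004 (chr7:31651249-31651308), which stood for the gene, read 0.78 to 1.30 over all 7 arrays. On that probe the genotypes overlapped.

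For Ikzf3, which encodes a lymphoid zinc finger factor, the 5 kept probes had log2 fold changes from -1.0 to 0.66, and 3 of them were highest on wild-type replicate 1. The brightest probe of Ikzf3 read -0.45 to -0.08, whereas probe A_55_P2504196 read 1.66 on wild-type replicate 1 and -0.90 to 0.11 elsewhere. Probe A_55_P2174490 of Cd37 read 1.06 on wild-type replicate 1 and -1.30 to 0.43 elsewhere. Probe A_52_P429826 of Pax5 was well above background in Cy5 on wild-type replicate 1 alone, where it read 2.19. The 3 probes of Ebf1, a factor that fat cells and their precursors also use, were not highest on that array.

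**Figure D3:**
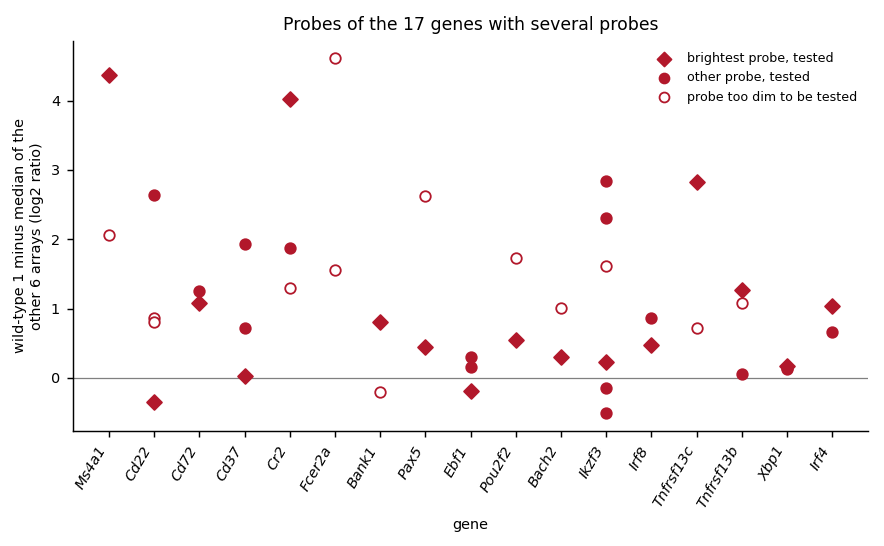
For the 17 genes with several probes, each point is one probe, and the vertical axis gives the log2 ratio of wild-type replicate 1 minus the median of the other 6 arrays. Filled diamonds are the brightest tested probes, filled circles other tested probes and open circles probes too dim to be tested; Cd22 and Ikzf3 have tested probes on both sides of 0.

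The wider B cell receptor pathway, a list of 20 further genes that were all tested, showed less of this peak on the brightest probes. Of these, 10 were highest on wild-type replicate 1 and 0 were 2-fold above every other array, against 10.5% and 0.747% of all probes. Other kept probes of the list were not counted, and some passed 2-fold there. The brightest probe of Pik3cd lay 0.86 above the highest other array on the log2 scale, and its other kept probes 0.47 and 1.09. In PRA transgenics 18 were lower and 2 higher in mean, where 45.8% of all probes were lower, with a median log2 fold change of -0.33, or -0.07 without wild-type replicate 1. At an unadjusted P under 0.05 there were 2 lower genes, against 4.48% of all probes. These were Bcl10 at -0.34 (standard error 0.14, limma adjusted p = 0.531), or -0.40 without wild-type replicate 1, and Malt1 at -0.51 (standard error 0.21, limma adjusted p = 0.537), or -0.38. Both encode parts of a complex that leads from the receptor to NF-kB. Of the ligands of the TNF receptors, only Tnfsf13b, which encodes BAFF, was tested, at a log2 fold change of 0.00 (standard error 0.21). Cd40lg was not well above background on any PRA transgenic array, and Tnfsf13 had no probe by that name.

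Of 11 immunoglobulin genes listed, whose product plasma cells secrete, 10 had a probe and were tested. On their brightest probes, 1 of them was highest on wild-type replicate 1, against 10.5% of all probes. Ighd, the heavy chain of IgD on mature B cells, read 4.25 on that array with its probe A_51_P266248 and 1.49 to 3.12 on the others. Its brightest probe did not show this in the ratio, at 3.28 against 2.21 to 3.76, so that Ighd is not the gene counted above. In unscaled Cy5 the brightest probe read 10.24 (log2 intensity) against 6.08 to 7.32. The reference was well above background on 1 array for each of these probes. Ighd was named after its values were seen. In PRA transgenics 7 were higher and 3 lower in mean, where 45.8% of all probes were lower. The median log2 fold change was 0.34, or 0.50 without wild-type replicate 1. Igha, the heavy chain of IgA, read 4.55, 4.16 and 4.41 in wild-type and 4.70, 4.88, 5.04 and 4.69 in PRA transgenic glands. All 4 PRA transgenic glands were above all 3 wild-type glands, and the log2 fold change was 0.45 (standard error 0.15, unadjusted P = 0.0190, limma adjusted p = 0.463), or 0.54 without wild-type replicate 1. For this probe the Cy3 reference, the same RNA throughout, was itself 1.19 higher on the PRA transgenic arrays on the log2 scale. Unscaled Cy5 overlapped narrowly, with 12.16 to 13.72 (log2 intensity) in wild-type and 13.60 to 15.66 in PRA transgenic glands. Whether the overlap remains after scaling was not tested. Non-overlap with PRA transgenics higher was found for 5.42% of all probes. On their brightest probes Ighm had a log2 fold change of 0.43, Jchain, which joins IgA and IgM units, of 0.61, and Igkc of -0.03, none with an unadjusted P under 0.05. The other 2 kept probes of Ighm gave 0.10 and, for A_51_P485421, 0.92 (standard error 0.24, unadjusted P = 0.00638, limma adjusted p = 0.405), or 1.03 without wild-type replicate 1. On the latter the genotypes did not overlap, and the reference was well above background on 3 arrays. Probes of immunoglobulin genes share much sequence, so that one transcript can bind several.

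Of 8 other plasma cell genes tested, 6 were lower and 2 higher in PRA transgenics in mean, where 45.8% of all probes were lower. Cd38, a surface enzyme that many cell types carry, read 0.72, 1.38 and 0.82 in wild-type and 0.25, 0.24, 0.33 and 0.23 in PRA transgenic glands. The genotypes did not overlap, and the log2 fold change was -0.71 (standard error 0.18, unadjusted P = 0.00455, limma adjusted p = 0.391), or -0.84 without wild-type replicate 1. As many cell types carry Cd38, this difference is not read as one of plasma cells.

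Markers of other lymphoid cells moved with the B cell genes on wild-type replicate 1, and their part in the result was not tested. Of 17 T cell genes, 16 were tested, and all 16 were highest on that array, against 10.5% of all probes. For 12 it was 2-fold above every other, against 0.747%. The mean log2 ratio of the T cell genes was 1.21, -1.03 and -0.68 in wild-type and -1.21 to -0.84 in PRA transgenic glands. The mean of the 27 member genes was 0.42, -0.88 and -0.92 in wild-type and -0.98 to -0.68 in PRA transgenic glands. In both lists wild-type replicate 1 was alone, and the other 2 wild-type glands lay within or close to the PRA transgenic range. The median log2 fold change of the T cell genes was -0.79, or -0.07 without wild-type replicate 1. Cd3e had a log2 fold change of -0.16 on its brightest probe. Cd8a, a marker of cytotoxic T cells, showed a difference of -2.71 on the log2 scale (standard error 0.88, unadjusted P = 0.0170, limma adjusted p = 0.462), or -1.69 without wild-type replicate 1. Its probe was well above background in Cy5 in 1 of 4 PRA transgenic glands and in Cy3 on no array, so that the size of this difference is uncertain.

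**Figure D4:**
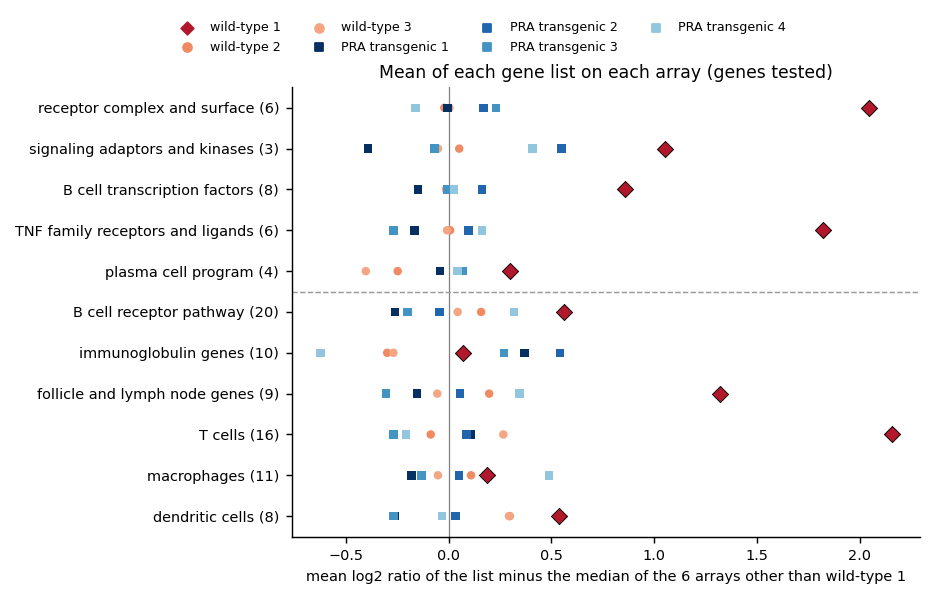
Each point is the mean log2 ratio of a gene list on one array minus the median of the 6 arrays other than wild-type replicate 1, with the number of genes tested in brackets; member genes lie above the dashed line and other lists below it. The diamonds of wild-type replicate 1 are far to the right for surface genes, TNF family genes, T cells and follicle and lymph node genes, and near the other arrays for macrophages and immunoglobulin genes.

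Genes of follicles and lymph nodes were divided in the same gland. Of 9 tested, 3 were 2-fold above every other array on wild-type replicate 1, against 0.747% of all probes. These were Ccr7 and Ccl19, a receptor and its ligand in lymphoid homing, and Fcmr, the receptor for IgM. Cxcr5, which guides B cells into follicles and was too dim for the test, was well above background in Cy5 on wild-type replicate 1 alone. The chemokines Cxcl13 and Ccl21a lay 0.32 and 0.02 above the median of the other arrays there, and were well above background on all 7 arrays. These 6 genes were chosen after their values were seen. The mean log2 ratio of the 9 genes tested was 2.57, 1.45 and 1.20 in wild-type and 0.95 to 1.60 in PRA transgenic glands. Of 11 macrophage genes tested, 0 were highest on wild-type replicate 1, against 10.5% of all probes. The log2 fold change of Cd163 was 0.47 (standard error 0.17, unadjusted P = 0.0276, limma adjusted p = 0.491), with and without wild-type replicate 1. Of 8 dendritic cell genes tested, 2 were 2-fold above every other array on wild-type replicate 1, against 0.747% of all probes. Clec9a, a marker of cross-presenting dendritic cells, gave a difference of -1.37 (log2, standard error 0.27, unadjusted P = 0.00118, limma adjusted p = 0.332), or -1.32 without wild-type replicate 1, and Zbtb46 of -0.93 (standard error 0.38, limma adjusted p = 0.534), or -1.19. For both genes Cy3 was well above background on no array.

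Markers of the gland itself were above the reference in mean on all arrays. The mean log2 ratio of 8 luminal genes ran from 2.69 to 3.52, that of 7 basal genes from 2.57 to 2.97 and that of 8 adipocyte genes from 5.32 to 6.10. For the luminal genes the 3.52 was wild-type replicate 1, followed by 3.28 on PRA transgenic replicate 1. On wild-type replicate 1, 5 of the 8 luminal genes were highest, against 10.5% of all probes, and 0 were 2-fold above every other array. For Lipe, the hormone-sensitive lipase of fat cells, the log2 fold change was 0.42 (standard error 0.15, limma adjusted p = 0.493). The mean of 7 skeletal muscle genes was 2.13, -0.86 and 3.47 in wild-type and -0.64 to 2.68 in PRA transgenic glands, so that muscle genes were high on wild-type replicate 1 as well as on wild-type replicate 3 and PRA transgenic replicate 4. Their part in the result was not tested.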

How the data were processed

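Per array, the authors deposited a scanner file made by Agilent Feature Extraction (12.0 in the submitters' processing notes), whose processed intensity values are background-subtracted and dye-normalized within the array. The deposited series table of log2 ratios equals these ratios centred on each probe's median, with 100% of values within 0.01. Control spots and outlier flags were left out, ratios of Cy5 to Cy3 were put on the log2 scale, and spots of a probe were averaged. Genotypes were taken from the labels, which number the samples as replicates. That they are separate animals, 3 wild-type and 4 PRA transgenic, is stated in the methods of the study. Probes well above background in Cy5 in all glands of one or both genotypes were kept, and PRA transgenic was compared with wild-type over all 34284 with limma 3.58.1 (lmFit, eBayes) under R 4.3.3 and p-values adjusted by Benjamini-Hochberg. The steps were tested on simulated data. No member spot was saturated. Precision is limited by the number of arrays. The brightest kept probe in Cy5 stood for a gene. Immunoglobulin constant genes were found by the probe description. Each array was named in full for Cd79a, Cd79b, Ms4a1, Pax5, Pou2af1, Mzb1, Xbp1 and the 10 members with the largest fold change. Of other lists, genes with an unadjusted P under 0.05 and Ighm, Igkc, Jchain, Cd3e and Tnfsf13b were named, and 1 further gene is not reported here. The members and lists were chosen with earlier results of these data known. Probe positions are on mm9 as in the files. Replicate numbers did not pair the animals (correlations of deviations 0.10, -0.30 and 0.04 for numbers 1 to 3), so no block was used. The alternatives are listed after the results, and the slide could not be a block, as there was 1.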

Additional observations from a re-analysis of the deposited data

Results flagged for a closer look

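In the 4 PRA transgenic glands, Ebf1 was far lower on 1 array than on the others. Replicate 2 read 2.50 on the log2 ratio scale and the other 3 read 3.29 to 3.43, a gap of 0.852 of the whole range. Of the 27 groups of 4 arrays looked at in this way, 1 had such a gap, and about 1.35 would by chance. The wild-type groups of 3 were too small for this look.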

How the results depend on the processing

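In the 17 alternatives that gave a test, 0 members had an adjusted p under 0.05, and over these and the median over probes 441 of 478 values of single members kept their direction. The median log2 fold change of the members ran from -0.38 to 0.13 when single arrays were left out, and was above 0 only without wild-type replicate 1. With other settings it lay from -0.42 (array weights) to -0.15 (both channels above background on every array). The count of members with an unadjusted P under 0.05 was 2, and 1 with both channels above background, with normexp and loess, and with the methods' t-test, and 3 with no filter on dim probes (Blk, Irf8 and Lta). It ran from 0 to 2 with single arrays left out, 0 without PRA transgenic replicate 2 or 3 and 1 without replicate 1. Where the count was 2, the genes were not always the same. Irf8 and Lta recurred with the series table, quantile normalization, an intensity trend, array weights and without wild-type replicate 3. In Cy5 alone they were Irf8, lower, and Cd37, higher. They were Cr2 and Ltb without wild-type replicate 2, and Blnk and Irf8 without PRA transgenic replicate 4. With the replicate number as a block, though the numbers do not pair the animals, the median was -0.30 and the count 3. Directions turned for Bank1 with normexp and loess (-0.12) and in Cy5 alone (-0.15), for Cd22 (-0.98) and Cd37 (-0.22) with the median over probes, for Ebf1 with quantile normalization (0.10), for Ikzf3 in Cy5 alone (0.00288), for Irf4 (-0.0309) and Mzb1 (-0.0261) with array weights, and for Pax5 with normexp and loess (-0.0163). With single arrays left out, log2 fold changes ran from -2.23 to 0.0323 for Ms4a1, -1.20 to 0.39 for Cd79b, -1.46 to 0.26 for Spib, -0.78 to 0.30 for Pou2af1, -0.71 to 0.38 for Vpreb3, -0.73 to 0.29 for Cd40, -0.33 to 0.35 for Cd72, -0.11 to 0.15 for Cd22, -0.56 to 0.23 for Tnfrsf17, -0.40 to 0.0244 for Bach2, -0.0724 to 0.74 for Bank1, -0.23 to 0.15 for Ebf1, -0.10 to 0.71 for Irf4, -0.12 to 0.23 for Mzb1, -0.14 to 0.26 for Pax5 and -0.11 to 0.17 for Xbp1. The causes were not tested. With 3 arrays against 4, only differences well over the spread between glands could be called.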

Other observations

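Probes that the array's descriptions call immunoglobulin variable or other segments numbered 193, of which 94 were kept, a set chosen after its values were seen. Such probes share sequence and are not independent. Their highest array was PRA transgenic replicate 2 for 58, PRA transgenic replicate 3 for 19, wild-type replicate 1 for 13 and PRA transgenic replicate 1 for 4. Of all probes tested, these arrays were highest for 11.9%, 14.0%, 10.5% and 19.5%, in the same order. The mean log2 ratio was 1.15, -0.63 and 0.14 in wild-type and 0.19, 1.72, 1.35 and 0.19 in PRA transgenic glands, so that 2 PRA transgenic glands and 1 wild-type gland were high. The median log2 fold change was 0.58, or 1.06 without wild-type replicate 1. At an unadjusted limma P under 0.05, 6 were higher and 1 lower in PRA transgenics, against 4.54% and 4.48% of all probes.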
